A study of Homo sapiens with 6 samples.

Results

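The luminal prostate lineage transcription factors described here are FOXA1, GATA2, GRHL2, SPDEF and ELF3, chosen by symbol in the deposited gene table. All 5 were found among its 18164 genes, each as a single row on a primary chromosome. They were measured by RNA sequencing of mRNA-enriched RNA from LNCaP, an established human prostate cancer line that keeps features of luminal secretory cells and is labelled WT. The cells of 3 libraries had been kept in 5 µM enzalutamide, an antiandrogen drug for prostate cancer, for 14 days, and the cells of 3 libraries had received the vehicle DMSO. Both groups were grown in medium with 10% fetal bovine serum and 0.1% DMSO, per the labels' protocols. Per the labels' protocols the DMSO dishes were seeded alike and taken once 70 to 80% confluent, with no day stated. Drug, time in culture and cell density therefore cannot be told apart in what follows.

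The secretory cells that line prostate glands are kept in their luminal state by a small set of DNA-binding proteins. FOXA1 is a forkhead pioneer factor that binds closed chromatin and opens enhancers to which steroid hormone receptors then bind. GATA2 is a zinc finger factor that works at many of the same enhancers, and GRHL2 is a grainyhead factor that keeps epithelial genes on and opposes the change to a mesenchymal state. SPDEF and ELF3 belong to the ETS family, whose epithelial members are found in secretory and barrier tissues. SPDEF was named for its expression in prostate and also drives secretory programs such as that of goblet cells.

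Promoter sequence was examined in RefSeq windows of 250 bases before to 50 bases after the annotated start on GRCh38.p14. Such windows were at hand for 4 of the 5 members, and none was at hand for GRHL2. The windows of ELF3, FOXA1 and SPDEF are shown because they belong to the member that rose most, the member with the highest level and the only member that fell. Capitals mark matches to the motifs searched, and the sequence runs 5′ to 3′ along the strand of the gene.
ELF3 (chr1:202010337-202010636, plus strand): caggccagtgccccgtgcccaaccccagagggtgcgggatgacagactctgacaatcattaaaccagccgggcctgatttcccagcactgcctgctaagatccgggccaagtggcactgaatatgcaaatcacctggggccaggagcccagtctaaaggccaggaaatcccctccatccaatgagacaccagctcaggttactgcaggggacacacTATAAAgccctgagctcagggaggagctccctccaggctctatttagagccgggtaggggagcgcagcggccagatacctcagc
FOXA1 (chr14:37595200-37595499, minus strand): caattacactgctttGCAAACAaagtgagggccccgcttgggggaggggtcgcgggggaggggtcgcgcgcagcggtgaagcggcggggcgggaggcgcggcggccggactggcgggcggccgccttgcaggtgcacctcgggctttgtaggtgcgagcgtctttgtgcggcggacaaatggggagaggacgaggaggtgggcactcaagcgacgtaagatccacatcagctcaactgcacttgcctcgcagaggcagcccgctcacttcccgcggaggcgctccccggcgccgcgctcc
SPDEF (chr6:34556280-34556579, minus strand): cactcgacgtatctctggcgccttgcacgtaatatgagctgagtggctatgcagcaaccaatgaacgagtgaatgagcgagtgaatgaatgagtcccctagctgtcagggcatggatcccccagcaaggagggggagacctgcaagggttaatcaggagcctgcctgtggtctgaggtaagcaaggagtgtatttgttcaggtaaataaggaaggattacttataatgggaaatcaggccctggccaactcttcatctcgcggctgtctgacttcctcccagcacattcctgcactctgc
The capitals in the ELF3 window are TATAAA, the core of a TATA box, whose first base lies 34 bases before the start. That motif was added after the sequence had been seen, and 11.5% of the 35116 RefSeq windows of this length hold it on either strand. The capitals in the FOXA1 window are the reverse complement of TGTTTGC, a form of the forkhead motif, 235 bases before the start. TGTTTAC or TGTTTGC stands in 7.17% of all windows on either strand.

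No other match was found in the windows of these 4 genes. The remaining motifs were AGATAA or TGATAA for GATA factors (16.3% of all windows), ACCGGTT or ACCAGTT for grainyhead factors (2.94%), CCGGAA for ETS factors (17.2%) and AGAACA, an arm of the steroid response element (14.8%), on both strands. In base composition the windows fell apart. FOXA1 and GATA2 had windows rich in G and C, with 69.3% for FOXA1 and 72.3% and 71.3% for the windows of GATA2, against a median of 58.7% over all windows. The ELF3 window had 59.0% and the SPDEF window 52.0%. The ratio of observed to expected CpG was 0.966 for FOXA1, 0.744 and 0.59 for GATA2, 0.397 for SPDEF and 0.269 for ELF3, with a median of 0.579 over all windows.

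Total counts per library over the retained genes ranged between 42302153 and 52107644 with enzalutamide and between 35578160 and 42540487 with DMSO. Groups parted along a first principal component with 88.45% of variance, and a second one with 5.44% placed enzalutamide replicate 1 away from its group. Mitochondrial genes took 13.8% ± 1.81 of counts with enzalutamide and 10.8% ± 0.396 with DMSO (SD, n = 3 each), with 12.1% in enzalutamide replicate 1. KLK3, which encodes prostate-specific antigen, was present at 194 ± 28.4 CPM (counts per library total after TMM scaling, which adjusts totals for RNA composition) with enzalutamide and 2582 ± 21.5 CPM with DMSO (SD, n = 3 each). Of 5 leukocyte markers, 0 were in the table. The summed level of 4 fibroblast markers lay between 11.9 and 13.1 CPM with enzalutamide and between 13.1 and 13.5 CPM with DMSO, with COL1A2 and DCN not in the table. Their directions differed: by the test described below, 2 rose, 1 fell and LUM missed the threshold, where 30.0% of all genes rose and 29.2% fell. COL1A1, which makes up most of the sum, fell to 8.60 ± 0.832 CPM with enzalutamide, against 12.1 ± 0.0644 CPM with DMSO (SD, n = 3 each, adjusted p = 0.00545, edgeR). COL3A1 rose to 2.92 ± 0.175 CPM with enzalutamide, against 0.837 ± 0.252 CPM with DMSO (SD, n = 3 each, adjusted p = 4.95e-05, edgeR), and PDGFRB rose at under 1 CPM in both groups (adjusted p = 0.0232, edgeR). The summed level of 2 endothelial markers lay between 8.77 and 11.9 CPM with enzalutamide and between 11.1 and 13.0 CPM with DMSO, with PECAM1, CDH5 and KDR not in the table. VWF fell (log2 change -0.64, adjusted p = 0.013, edgeR), and EMCN rose to 2.80 ± 0.431 CPM with enzalutamide, against 0.617 ± 0.197 CPM with DMSO (SD, n = 3 each, log2 change 2.19, adjusted p = 3.02e-05, edgeR). The part of these other-cell markers in the results below was not tested. The 5 proliferation markers all fell, with a summed level between 80.1 and 85.6 CPM with enzalutamide against 1002 to 1010 CPM with DMSO. Among them the log2 change was -5.85 for MKI67, -5.09 for TOP2A, -3.54 for CCNB1 and -2.76 for MCM2 (adjusted p at most 2.38e-07 for each, edgeR). The part of the lower proliferation in the results below was not tested.

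All 5 members changed after enzalutamide: ELF3, GATA2, GRHL2 and FOXA1 rose and SPDEF fell. The changes were tested with the quasi-likelihood F test of edgeR over all 18164 genes, with Benjamini-Hochberg adjusted p under 0.05 as the threshold. Of all genes tested, 59.2% passed it, 30.0% as higher and 29.2% as lower, so the count of 5 of 5 stands beside a background in which most genes passed. The median log2 change of the members was 0.53, against 0.00 over all genes tested. In each of the 5 the enzalutamide and DMSO libraries did not overlap in CPM, as was so for 66.4% of all genes. The 5 genes held between 1091 and 28018 counts per enzalutamide library and between 761 and 17586 per DMSO library. In bulk RNA, fewer cells of a type and less RNA per cell cannot be told apart.

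**Figure D1:**
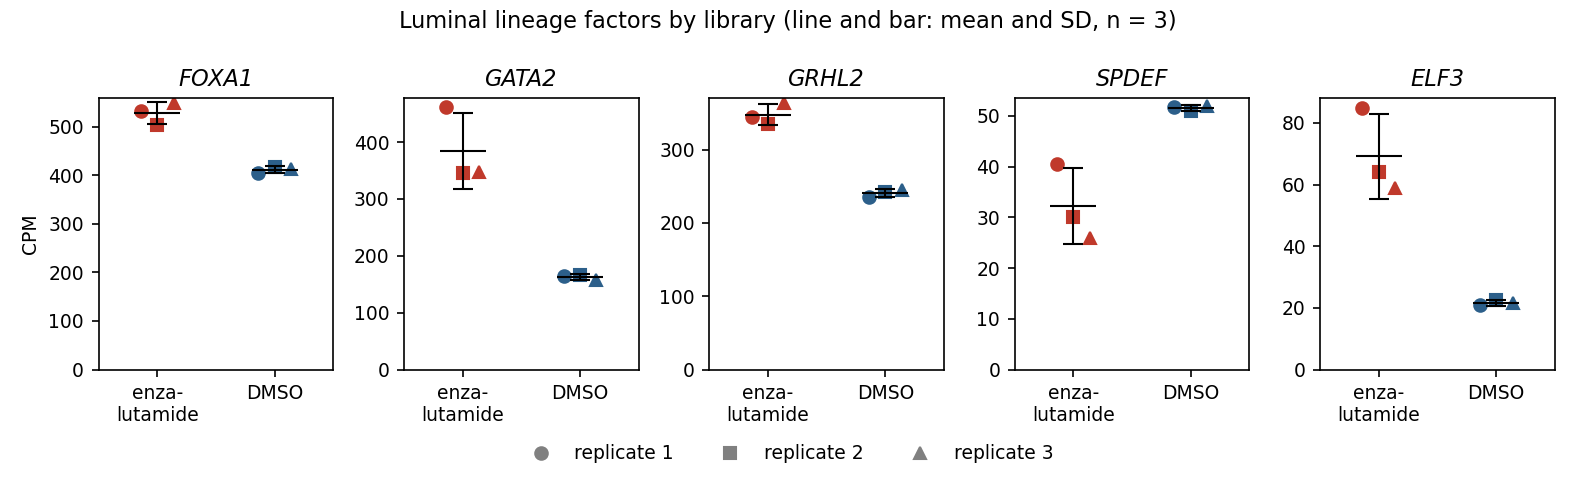
Each panel plots the CPM of 1 member in the 3 enzalutamide and 3 DMSO libraries, with marker shapes for the replicate numbers and a line and bar for the mean and SD. ELF3, GATA2, GRHL2 and FOXA1 lie higher in every enzalutamide library and SPDEF lower, and enzalutamide replicate 1 is the highest of its group for GATA2, SPDEF and ELF3.

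FOXA1 (ENSG00000129514.6, chromosome 14, 37589552 to 37596059, hg38, minus strand) had 533, 503 and 548 CPM in the enzalutamide libraries, against 404, 418 and 412 CPM in the DMSO libraries. Every enzalutamide library lay above every DMSO library, though by a smaller ratio than for the other members that rose. The log2 change was 0.36 ± 0.083 (SE, 95% interval 0.18 to 0.54, adjusted p = 0.00367, edgeR), a 1.28-fold rise. The pioneer factor was highly expressed in both groups: per length it stood above 99.01% of the genes in the table with enzalutamide and above 98.27% with DMSO.

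GATA2 (ENSG00000179348.11, chromosome 3, 128479427 to 128493185, minus strand) had 462, 346 and 347 CPM in the enzalutamide libraries, against 164, 167 and 157 CPM in the DMSO libraries. The groups lay far apart, and within the enzalutamide group replicate 1 was the highest by 0.42 on the log2 scale over the mean of the others. The log2 change was 1.24 ± 0.12 (SE, 95% interval 0.97 to 1.51, adjusted p = 1.4e-05, edgeR), a 2.36-fold rise. Without enzalutamide replicate 1 it was 1.10 ± 0.059 (SE, adjusted p = 7.03e-20, edgeR), in a fit where 71.2% of all genes passed, against 59.2%. That fit drops the library that stands apart from its group. Its smaller adjusted p is therefore not stronger evidence, here or for ELF3 and SPDEF below.

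GRHL2 (ENSG00000083307.12, chromosome 8, 101492439 to 101669726, plus strand) had 345, 335 and 364 CPM in the enzalutamide libraries, against 235, 243 and 245 CPM in the DMSO libraries. The 3 libraries of each group lay close together and the groups did not overlap. The log2 change was 0.53 ± 0.084 (SE, 95% interval 0.34 to 0.72, adjusted p = 0.000336, edgeR), a 1.44-fold rise.

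ELF3 (ENSG00000163435.16, chromosome 1, 202007945 to 202017183, plus strand) had 84.8, 63.9 and 58.9 CPM in the enzalutamide libraries, against 20.8, 22.7 and 21.6 CPM in the DMSO libraries. It had the largest rise of the 5, and again replicate 1 was the highest enzalutamide library. The log2 change was 1.67 ± 0.14 (SE, 95% interval 1.35 to 1.99, adjusted p = 5.4e-06, edgeR), a 3.19-fold rise. Without enzalutamide replicate 1 it was 1.51 ± 0.072 (SE, adjusted p = 1.47e-21, edgeR). The intervals of ELF3 and GATA2 overlap, and the difference between their changes was not tested.

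SPDEF (ENSG00000124664.11, chromosome 6, 34537802 to 34556333, minus strand) had 40.4, 30.1 and 25.9 CPM in the enzalutamide libraries, against 51.8, 50.9 and 51.9 CPM in the DMSO libraries. It was the only member that fell, and its DMSO libraries were almost equal while the enzalutamide libraries spread widely. The log2 change was -0.68 ± 0.15 (SE, 95% interval -1.02 to -0.34, adjusted p = 0.00331, edgeR), 1.601-fold lower with enzalutamide. Without enzalutamide replicate 1 it was -0.86 ± 0.075 (SE, adjusted p = 2.12e-13, edgeR), so the library that stands apart is the one nearest to DMSO for this gene.

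With enzalutamide the members fell into a tight pair and a variable group of 3 in their spread between libraries. The SD of log2 CPM over the enzalutamide libraries was 0.064 for FOXA1 and 0.061 for GRHL2, and 0.24 for GATA2, 0.28 for ELF3 and 0.33 for SPDEF. Over the 8545 genes that averaged 10 CPM or more in both groups its median was 0.19 with enzalutamide and 0.061 with DMSO. With DMSO the members ranged between 0.015 for SPDEF and 0.063 for ELF3. The grouping with enzalutamide follows replicate 1, the library that stands apart. On the log2 scale it exceeded the mean of the other enzalutamide libraries by 0.42 for GATA2, 0.47 for ELF3 and 0.53 for SPDEF. For FOXA1 and GRHL2 that difference was 0.02 and -0.02.

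Between genes, levels were compared per length, as CPM per kilobase of exon. With enzalutamide the order was FOXA1 (120 ± 5.26), GATA2 (86.3 ± 15.0), GRHL2 (57.5 ± 2.42), SPDEF (16.8 ± 3.90) and ELF3 (9.63 ± 1.91), each SD with n = 3. With DMSO it was FOXA1 (93.2 ± 1.57), GRHL2 (39.8 ± 0.834), GATA2 (36.5 ± 1.10), SPDEF (26.9 ± 0.284) and ELF3 (3.02 ± 0.132), each SD with n = 3. GATA2 and GRHL2 thus stood in opposite order in the 2 groups. GATA2 was 1.501 times GRHL2 with enzalutamide, and GRHL2 was 1.09 times GATA2 with DMSO, each in 3 of 3 libraries. No neighbours in either order overlapped in their libraries, though GRHL2 and GATA2 with DMSO (lowest and highest libraries 38.8 and 37.4) and SPDEF and ELF3 with enzalutamide (13.5 and 11.8) came close. The gap between SPDEF and ELF3 was 1.75-fold with enzalutamide and 8.91-fold with DMSO. Exon length comes from the deposited table and covers all annotated exons, so a gene whose cells use a short transcript is understated. Which transcripts these cells use was not measured. The length was 7186 bases for ELF3 and 1914 for SPDEF. In CPM, ELF3 stood above SPDEF with enzalutamide (69.2 and 32.2), so their order there rests on length. The gaps above and the shares below depend on these lengths as well.

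**Figure D2:**
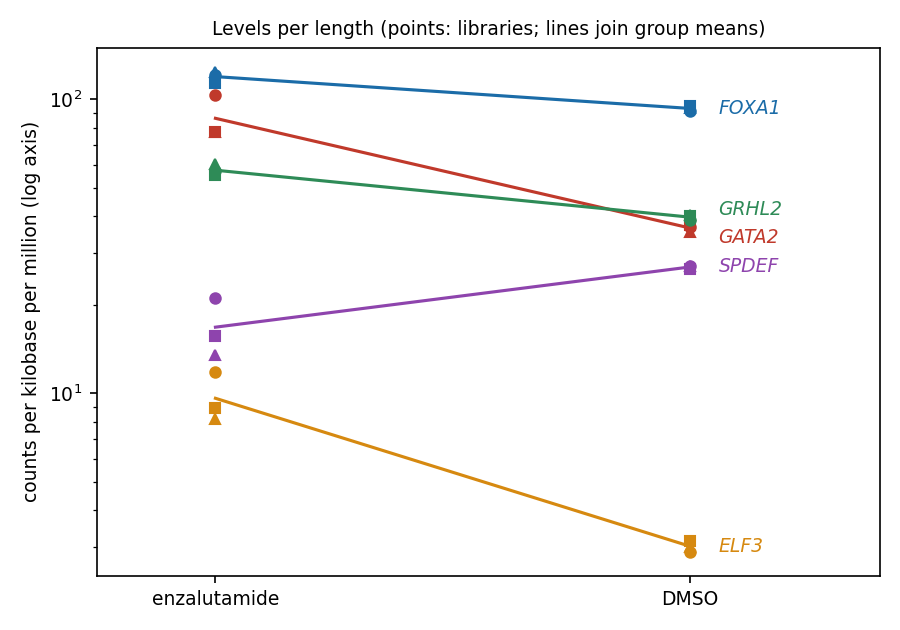
The vertical axis gives CPM per kilobase of exon on a log scale for the 5 members in the enzalutamide libraries (left) and DMSO libraries (right), and lines join the group means. The lines of GATA2 and GRHL2 cross, and those of SPDEF and ELF3 converge with enzalutamide.

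Summed over the 5 members, the level per length was 314, 271 and 284 in the enzalutamide libraries, against 197, 202 and 199 in the DMSO libraries. FOXA1 made up 38.4 to 43.8% of that sum with enzalutamide and 46.4 to 46.9% with DMSO. GATA2 made up 27.4 to 33.0% with enzalutamide and 17.7 to 18.7% with DMSO. The share of SPDEF was 4.77 to 6.73% with enzalutamide and 13.2 to 13.7% with DMSO.

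Paralogs of the members were mixed in direction. Of 11 paralogs listed, 5 were in the table: 1 rose and 2 fell, while 2 missed the threshold (median log2 change -0.14). Over all genes, 30.0% rose and 29.2% fell. GATA6, a GATA factor known from endoderm-derived tissues, rose to 16.3 ± 1.13 CPM with enzalutamide, against 4.49 ± 0.208 CPM with DMSO (SD, n = 3 each, log2 change 1.86 ± 0.12, SE, adjusted p = 6.47e-07, edgeR). Per length it stayed at 4.07 with enzalutamide and 1.12 with DMSO, far below GATA2. GRHL1 and GRHL3, the other grainyhead-like factors, did not pass. GRHL1 had 21.6 ± 3.28 CPM with enzalutamide and 22.3 ± 1.49 CPM with DMSO (SD, n = 3 each), and its direction is not settled, since the log2 change of -0.04 turned to 0.08 with upper quartile scaling. GRHL3 had 2.56 ± 0.414 CPM with enzalutamide and 2.84 ± 0.312 CPM with DMSO (SD, n = 3 each).

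EHF and ELF5, close relatives of ELF3 in the ETS family, both fell while ELF3 rose. EHF had 244, 318 and 341 CPM in the enzalutamide libraries, against 678, 675 and 700 CPM in the DMSO libraries, with a log2 change of -1.18 ± 0.12 (SE, adjusted p = 1.95e-05, edgeR). ELF5, a factor known from mammary luminal cells, had 0.599 ± 0.0772 CPM with enzalutamide and 2.77 ± 0.437 CPM with DMSO (SD, n = 3 each, log2 change -2.21, adjusted p = 7.92e-06, edgeR). EHF was the lowest in enzalutamide replicate 1, the library in which SPDEF and ELF3 were the highest of their group.

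Among EHF, SPDEF, ELF3 and ELF5 together, the summed level per length was 88.8, 97.3 and 99.7 in the enzalutamide libraries, against 185, 184 and 190 in the DMSO libraries. EHF held 62.7 to 78.1% of it with enzalutamide and 83.5 to 83.8% with DMSO. ELF3 held 8.22 to 13.3% with enzalutamide and 1.57 to 1.71% with DMSO. SPDEF held 13.6 to 23.8% with enzalutamide and 14.2 to 14.6% with DMSO, ranges that overlap. The set of epithelial ETS factors was thus lower in sum with enzalutamide while the share of ELF3 in it was higher in each enzalutamide library. These 4 genes were put together after their values were seen.

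Of 10 other transcription factors of luminal or prostate cells, 2 rose and 5 fell, while 3 missed the threshold (median log2 change -0.47, without enzalutamide replicate 1 -0.41 with 3 that rose). Among all genes 30.0% rose and 29.2% fell, and 35.6% rose in the fit without that library. TRPS1, an atypical GATA-type zinc finger protein known from luminal breast cells, rose to 84.1 ± 7.48 CPM with enzalutamide, against 18.1 ± 0.456 CPM with DMSO (SD, n = 3 each, log2 change 2.22 ± 0.11, SE, adjusted p = 7.16e-08, edgeR). SOX9, known from prostate development, rose to 17.4 ± 1.14 CPM with enzalutamide, against 8.16 ± 0.734 CPM with DMSO (SD, n = 3 each, log2 change 1.09, adjusted p = 3.09e-05, edgeR). CREB3L4, a membrane-bound factor of the secretory pathway, fell to 36.3 ± 4.64 CPM with enzalutamide, against 75.9 ± 1.72 CPM with DMSO (SD, n = 3 each, log2 change -1.06, adjusted p = 2.43e-05, edgeR).

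KLF5, a zinc finger factor of basal and luminal epithelium, had a log2 change of -1.70 (adjusted p = 2.13e-05, edgeR), and FOXP1, a forkhead factor, one of -0.50 (adjusted p = 0.00371, edgeR). MEIS1, a homeodomain partner of HOX proteins, had 0.149 ± 0.0192 CPM with enzalutamide and 2.37 ± 0.373 CPM with DMSO (SD, n = 3 each, log2 change -3.97, adjusted p = 4.96e-07, edgeR). CREB3L1 had 1 count over the enzalutamide libraries and 70 over the DMSO libraries, a level 90.6-fold higher in DMSO (exact 95% counting interval 15.7 to 3630). XBP1, a factor of the secretory stress response (log2 change 0.19, adjusted p = 0.139, edgeR), ZNF217 (0.14, adjusted p = 0.271, edgeR) and TFCP2L1 (-0.45, adjusted p = 0.305, edgeR) did not pass. XBP1 passed with upper quartile scaling (log2 change 0.31, adjusted p = 0.0203, edgeR), and ZNF217 passed without enzalutamide replicate 1 (0.25, adjusted p = 5e-04, edgeR).

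**Figure D3:**
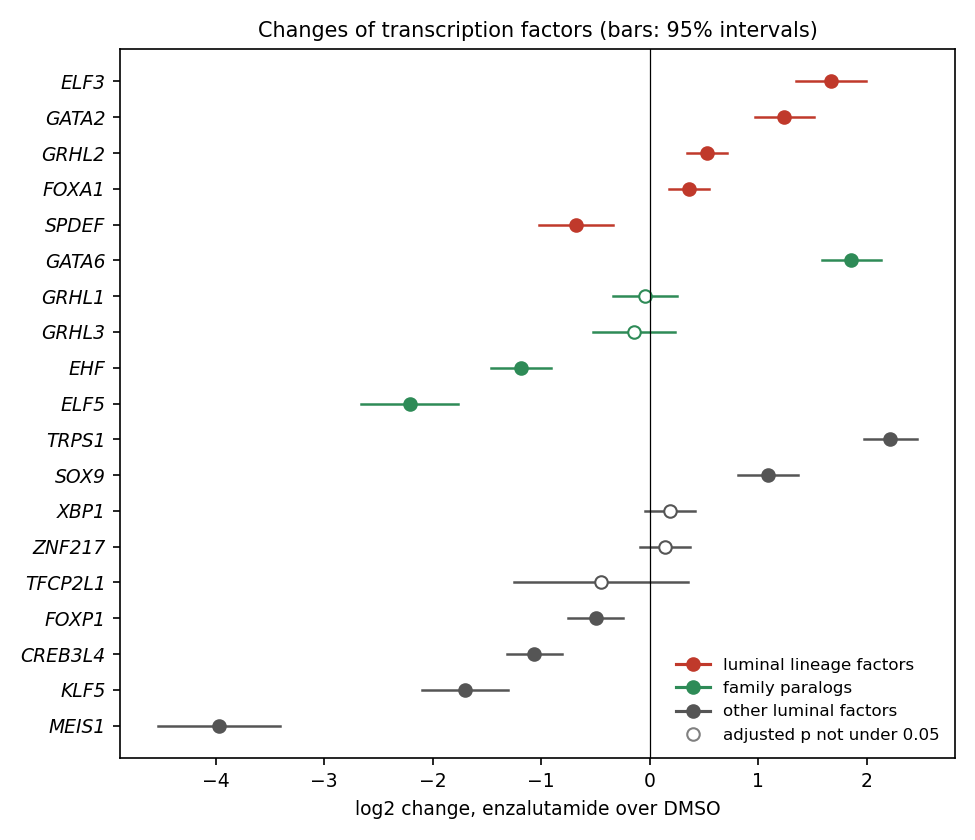
Points give the log2 change (enzalutamide over DMSO) and bars its 95% interval for the 5 members, 5 paralogs and 9 other luminal factors, with open points where adjusted p was not under 0.05. CREB3L1 is left out for its few counts. ELF3 and GATA2 stand at the top of the members, and EHF and ELF5 lie on the other side of 0 from ELF3.

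Cofactors known to work with FOXA, GATA or grainyhead factors were shifted in part. Of 14 measured, 6 rose and 3 fell, while 5 missed the threshold (median log2 change 0.22, 0.00 over all genes). The shares over all genes were 30.0% higher and 29.2% lower. TLE1 and TLE3, corepressors that bind FOXA proteins, both rose, with log2 changes of 2.06 (adjusted p = 8.91e-07, edgeR) and 0.80 (adjusted p = 0.000188, edgeR). KMT2C, a histone methyltransferase of enhancers, had 548 ± 64.7 CPM with enzalutamide and 228 ± 5.57 CPM with DMSO (SD, n = 3 each, log2 change 1.26, adjusted p = 3.5e-06, edgeR). CREBBP, a histone acetyltransferase, had a log2 change of 0.78 (adjusted p = 6.1e-05, edgeR). On the lower side stood KDM1A, a histone demethylase that acts on FOXA1 itself, at -0.68 (adjusted p = 0.00011, edgeR), and MED1, a Mediator subunit, at -0.64 (adjusted p = 0.000526, edgeR). SMARCA4, a remodelling ATPase, had a log2 change of -0.40 (adjusted p = 0.0104, edgeR) and did not pass with upper quartile scaling (-0.28, adjusted p = 0.0526, edgeR).

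Androgen-responsive genes with enhancers known to be bound by FOXA1 fell while FOXA1 rose. Of 14 measured, 12 fell and 1 rose, while 1 missed the threshold (median log2 change -1.98, 0.00 over all genes). By comparison 29.2% of all genes fell and 30.0% rose. KLK2, a kallikrein, had a log2 change of -4.48, FKBP5, an immunophilin, one of -3.88, KLK3 one of -3.73 and SLC45A3, a membrane transporter, one of -3.30 (adjusted p at most 1.54e-08 for each, edgeR). PDE9A, a phosphodiesterase, was the one that rose (log2 change 0.38, adjusted p = 0.00812, edgeR).

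Most epithelial genes known as GRHL2 targets missed the threshold. Of 14 measured, 4 rose and 1 fell, while 9 missed the threshold (median log2 change 0.11). In the same fit 30.0% of all genes rose and 29.2% fell, so the count that rose is near the share over all genes. Without enzalutamide replicate 1 the counts were 4 that rose and 5 that fell, with a median of -0.09, in a fit where 71.2% of all genes passed, 35.6% as lower. CDH1, which encodes E-cadherin, rose to 1391 ± 109 CPM with enzalutamide, against 828 ± 16.1 CPM with DMSO (SD, n = 3 each, log2 change 0.75 ± 0.089, SE, adjusted p = 4.59e-05, edgeR). SPINT2, a protease inhibitor, had a log2 change of 0.92 (adjusted p = 0.000708, edgeR), and OVOL1, a zinc finger factor, one of 0.82 (adjusted p = 0.0024, edgeR). RAB25, an epithelial GTPase, had one of 0.55 (adjusted p = 0.0131, edgeR), a call lost without DMSO replicate 1 (adjusted p = 0.0527). ESRP2, an epithelial splicing factor, fell to 49.98 ± 4.07 CPM with enzalutamide, against 117 ± 3.00 CPM with DMSO (SD, n = 3 each, log2 change -1.22, adjusted p = 2.74e-06, edgeR). Its relative ESRP1 had 107 ± 6.49 CPM with enzalutamide and 107 ± 3.56 CPM with DMSO (SD, n = 3 each).

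Of 9 mesenchymal genes that GRHL2 is known to oppose, 5 were in the table, of which 2 rose and 3 fell, beside 30.0% and 29.2% of all genes. ZEB1 and ZEB2, repressors of CDH1, were not in it. SNAI2 and TWIST1, factors of the mesenchymal state, fell, with log2 changes of -3.72 (adjusted p = 8.43e-07, edgeR) and -2.85 (adjusted p = 7.96e-08, edgeR). SNAI2 was at a low level, with 0.199 CPM with enzalutamide and 2.63 CPM with DMSO, and TWIST1 had 1.96 and 14.2 CPM. FN1, fibronectin, rose to 1499 ± 165 CPM with enzalutamide, against 424 ± 16.4 CPM with DMSO (SD, n = 3 each, log2 change 1.82, adjusted p = 2.39e-07, edgeR). VIM, vimentin, rose at a low level (log2 change 0.50, adjusted p = 0.033, edgeR), a call that was lost without enzalutamide replicate 1 (adjusted p = 0.0592) or without any of the DMSO replicates (adjusted p = 0.0556 to 0.116). The list median was -0.99, and -1.33 without enzalutamide replicate 1.

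Of 12 secretory genes linked to SPDEF, 5 were in the table, of which 3 fell and 1 rose, while 1 missed the threshold (median log2 change -1.06). Over all genes the shares were 29.2% lower and 30.0% higher. AGR2, a protein disulfide isomerase of secretory cells, did not pass, with 74.1 ± 18.7 CPM with enzalutamide and 79.7 ± 9.31 CPM with DMSO (SD, n = 3 each). MUC1, a membrane mucin, rose (log2 change 1.43, adjusted p = 0.00044, edgeR) at 1.35 CPM with enzalutamide and 0.504 CPM with DMSO. Besides CREB3L4 and CREB3L1, given above, AGR3 fell at under 1 CPM in both groups. These lists rest on knowledge of other cells and tissues, and binding was not measured here.

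Luminal and basal markers were both mixed in direction. Of 7 luminal markers measured, 3 rose and 3 fell, while 1 missed the threshold (median log2 change 0.06, and -0.13 without enzalutamide replicate 1). For these and the basal markers the background is 30.0% of all genes higher and 29.2% lower. CD24 (log2 change 2.26), ACP3, prostatic acid phosphatase (1.56), and KRT8, a luminal keratin (0.56), rose, and MSMB, a secreted prostatic protein (-2.30), DPP4, a peptidase (-2.09), and KRT19 (-1.09) fell. KRT18, the partner of KRT8, had 302 ± 69.7 CPM with enzalutamide and 290 ± 7.30 CPM with DMSO (SD, n = 3 each). The luminal markers that fell were at a low level. With enzalutamide and DMSO in that order, MSMB had 0.218 and 1.11 CPM, DPP4 1.502 and 6.42 CPM, and KRT19 3.87 and 8.28 CPM. Of those that rose, CD24 had 5.73 and 1.19 CPM, ACP3 659.7 and 223.2 CPM, and KRT8 421 and 286 CPM. The summed luminal level was 1271 to 1575 CPM with enzalutamide and 803 to 835 CPM with DMSO. Most of it was ACP3, KRT8 and KRT18, so it does not describe the markers that fell. Of 9 basal markers 5 were in the table, without KRT5 and TP63, the defining ones. ITGB4 (log2 change 3.37), CDH3 (2.79) and NGFR (2.36) rose, and KRT14 (-1.003) and ITGA6 (-0.65) fell. All but ITGA6 were at a low level in both groups. ITGB4 had 5.54 CPM with enzalutamide and 0.533 CPM with DMSO. In the same order CDH3 had 1.72 and 0.243 CPM, NGFR 2.44 and 0.472 CPM, and KRT14 1.08 and 2.15 CPM. The summed level of the 5 was 55.0 to 61.0 CPM with enzalutamide and 74.4 to 81.5 CPM with DMSO. Most of that sum was ITGA6, with 47.9 CPM with enzalutamide and 75.0 CPM with DMSO, so it does not describe the markers that rose.

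**Figure D4:**
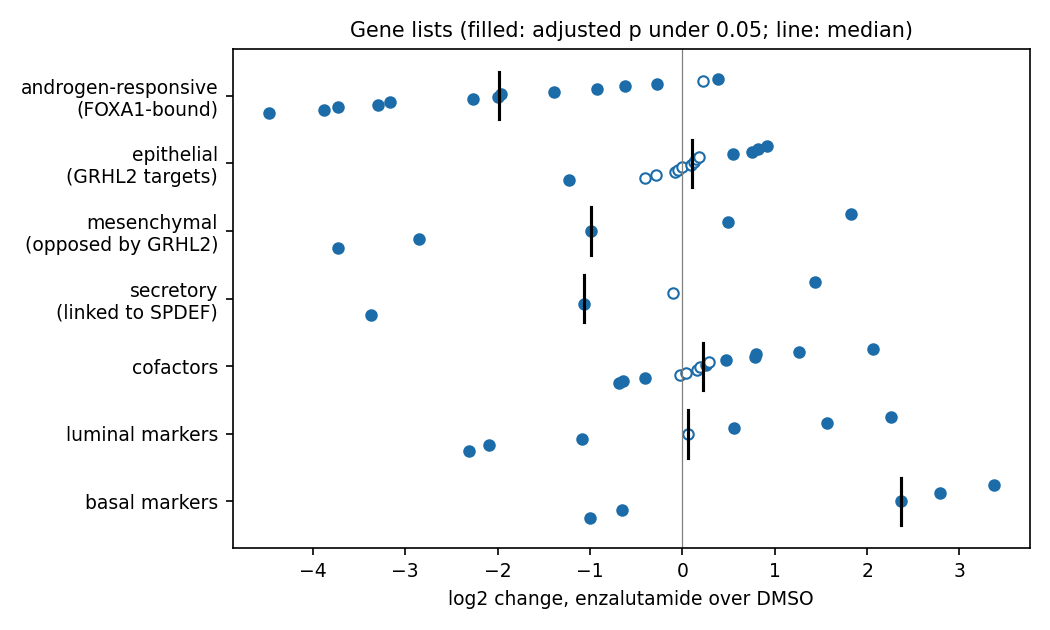
Each point is the log2 change (enzalutamide over DMSO) of 1 gene in a list, filled where adjusted p was under 0.05, and the line is the list median. CREB3L1 is left out of the points. The androgen-responsive list lies almost wholly below 0 (median -1.98), while the GRHL2 targets gather around 0 (median 0.11).

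The loci of 4 members are overlapped by a gene on the opposite strand, and the changes of these partners ran between a fall and a 9.19-fold rise. ELF3-AS1, a long non-coding RNA, had 53.0, 50.7 and 50.5 CPM in the enzalutamide libraries, against 18.4, 18.3 and 17.5 CPM in the DMSO libraries. It rose with ELF3 by a like amount (log2 change 1.51 ± 0.10, SE, adjusted p = 7.03e-07, edgeR), but its enzalutamide libraries lay close together where those of ELF3 were spread. The annotated 5′ end of ELF3-AS1 lies 124 bases upstream of the RefSeq start of ELF3, inside the promoter window printed above. GATA2-AS1 had 74.5, 74.6 and 78.6 CPM in the enzalutamide libraries, against 56.3, 55.8 and 55.4 CPM in the DMSO libraries. Its rise was smaller than that of GATA2 (log2 change 0.44 ± 0.091, SE, adjusted p = 0.00185, edgeR), and the difference between them was not tested.

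AP001207.3, a long non-coding RNA that starts head to head with GRHL2, had 37.5, 40.4 and 33.6 CPM in the enzalutamide libraries, against 4.19, 3.83 and 4.13 CPM in the DMSO libraries. With a 9.19-fold rise (log2 change 3.1997 ± 0.13, SE, adjusted p = 1.69e-08, edgeR) it changed far more than GRHL2, which rose 1.44-fold. TTC6, a protein-coding gene that starts 598 bases from the RefSeq start of FOXA1 and runs the other way, had 50.8, 71.0 and 74.9 CPM in the enzalutamide libraries, against 111, 101 and 118 CPM in the DMSO libraries. It fell (log2 change -0.75 ± 0.15, SE, adjusted p = 0.00135, edgeR) while FOXA1 rose. The strand setting of the counting is not stated, and reads in shared exons cannot be assigned with certainty. The exons shared in the deposited annotation were 664 bases (9.24% of the ELF3 exons) for ELF3-AS1, 50 bases for AP001207.3, 16 bases for TTC6 and 0 bases for GATA2-AS1.

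**Figure D5:**
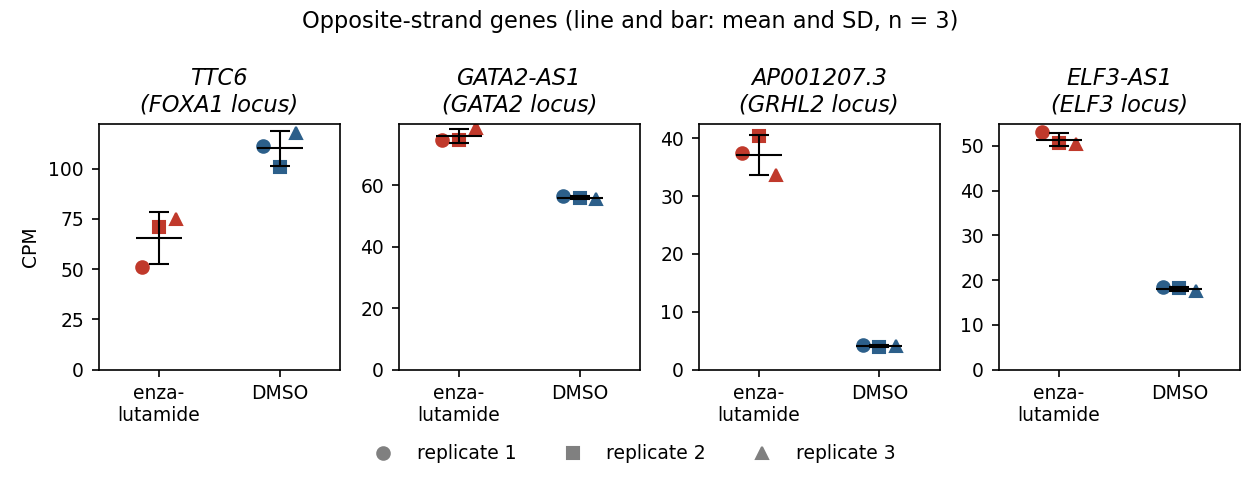
Panels plot the CPM of the opposite-strand partner of FOXA1, GATA2, GRHL2 and ELF3 in each library, with the mean and SD. TTC6 lies lower in every enzalutamide library, and the 3 long non-coding RNAs lie higher, AP001207.3 by 9.19-fold.

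Within 200 kb of the members the table holds 27 other genes, partners included, of which 16 rose and 7 fell, while 4 missed the threshold (median log2 change 0.87). Over all genes 30.0% rose and 29.2% fell, with a median of 0.00. Whether the neighbours differ from that background was not tested. The nearest genes without overlap were mixed. RNPEP, an aminopeptidase, lies 1.8 kb from ELF3 and did not pass (log2 change 0.08, adjusted p = 0.624, edgeR), and GPR37L1, a receptor on the other side, is at under 1 CPM in both groups (log2 change 2.86, adjusted p = 0.000485, edgeR). PACSIN1, an adaptor of endocytosis 2.57 kb from SPDEF, rose to 50.4 ± 10.98 CPM with enzalutamide, against 14.2 ± 0.704 CPM with DMSO (SD, n = 3 each, log2 change 1.83, adjusted p = 4.93e-06, edgeR), while SPDEF fell. On its other side ILRUN rose as well (log2 change 0.87, adjusted p = 7.91e-05, edgeR).

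NCALD, a neuronal calcium sensor 16.8 kb from GRHL2, rose at a low level (7.45 ± 0.504 CPM with enzalutamide, 0.581 ± 0.115 CPM with DMSO, SD, n = 3 each, log2 change 3.66, adjusted p = 6.76e-08, edgeR). AL121790.1, a long non-coding RNA 10.4 kb from FOXA1, also rose at a low level, with 3.93 CPM with enzalutamide and 1.39 CPM with DMSO (log2 change 1.503, adjusted p = 2.99e-05, edgeR). On the other side of FOXA1, 124 kb away, the small nucleolar RNA RF00406 did not pass (log2 change -0.26, adjusted p = 0.473, edgeR). The pseudogene TMED10P2, 44.8 kb from GATA2, rose to 3.44 CPM with enzalutamide, against 0.373 CPM with DMSO (log2 change 3.21, adjusted p = 4.45e-07, edgeR), with reads that may come from its parent gene.

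For each member, the protein-coding genes most like it over the 6 libraries were taken as those with the smallest root mean square distance between centred log2 CPM profiles, among 9312 genes that averaged 5 CPM or more in both groups. For FOXA1 these were C22orf39 (distance 0.013 on the log2 scale), NEDD4L (0.021) and ANKRD27 (0.023), and for GRHL2 they were GIT2 (0.015), FAM120A (0.017) and AHCYL2 (0.021). For GATA2 they were ABHD4 (0.021), FAM117A (0.030) and FRAT1 (0.030). For ELF3 they were SDC1 (0.041), TEF (0.043) and AMIGO1 (0.045), and for SPDEF INF2 (0.040), NHP2 (0.044) and GAA (0.045). SDC1, syndecan 1 of epithelial surfaces, had 162 ± 34.6 CPM with enzalutamide and 53.1 ± 1.16 CPM with DMSO (SD, n = 3 each).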

How the data were processed

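RNA of 6 LNCaP libraries was sequenced, and titles gave each library its group and number. The submitters' processing notes name STAR 2.5, edgeR 3.20.8, Subread 1.6.5, featureCounts, bcl2fastq and the build hg38. The deposited table holds whole-number read counts per gene, per the file headers, for 18164 genes each with at least 9 counts in at least 3 libraries. The log2 CPM, log2 RPKM and log2 fold changes, the p-values and false discovery rates in the deposited table are the authors', per the file headers. They were used only as a check: the authors' log2 fold changes of the members differed from those given here by at most 0.000222 in the authors' deposited table. Gene lengths are those of the table.

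Counts were fitted on group alone with edgeR 4.0.16 (R 4.3.3): TMM scaling, filterByExpr, which removed 0 genes, and the robust quasi-likelihood test. CPM uses TMM-scaled library sizes. SE and 95% intervals were derived from the F test. The script was tested on simulated data. Alternatives were DESeq2 1.42.0, limma-voom (limma 3.58.1), other scalings and filters, a replicate block and leaving out each library. Nothing states that the replicates were separate cultures: the p-values reflect the spread of these libraries alone, possibly technical. Counting intervals cover counting error only. The members and lists were chosen with earlier results of these data known. Named were the members, the measured paralogs and other luminal factors, and up to 4 list genes past the threshold in each direction, largest change first, where 1 group or both averaged 1 CPM or more. Further list genes named as examples, among them ESRP1, KRT18, AGR2 and AGR3, were chosen after their values were seen. ACP3 is listed as ACPP and was matched by gene ID. Promoters are from RefSeq. Of the lists, 5 genes are not reported or counted here, as an exception to that rule.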

Additional observations from a re-analysis of the deposited data

How the results depend on the processing

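The 5 members kept their direction and stayed past the threshold in all 13 alternatives run. The log2 change ranged between 0.33 and 0.49 for FOXA1, 1.10 and 1.36 for GATA2, 0.50 and 0.66 for GRHL2, -0.86 and -0.55 for SPDEF and 1.51 and 1.80 for ELF3, with highest adjusted p of 0.0262, 0.000203, 0.0041, 0.0171 and 0.000105. Upper quartile scaling moved the median of all genes by 0.13 (log2) and the share of calls that were higher to 59.5%, against 50.7%. Leaving out 1 library gave 9151 to 12924 calls over all genes, against 10754, and the other settings 8990 to 10794. Filtering removed no gene, so the setting without a filter equals the reported one. With the replicate number as a block the 5 members passed, with log2 changes of 0.36 (FOXA1), 1.23 (GATA2), 0.53 (GRHL2), -0.70 (SPDEF) and 1.65 (ELF3), and 10174 genes were called. No pairing of the libraries is given beyond their number. Deviations of same-numbered libraries correlated at -0.15, -0.144 and 0.051, and those of differently numbered ones at -0.154 to 0.218. With so few libraries these values cannot settle whether the libraries were paired. Of the other named genes, GRHL1, which did not pass, changed sign to 0.0834 with upper quartile scaling and ranged between -0.1622 and 0.0685 when 1 library was left out, turning positive without enzalutamide replicate 1 (0.0685) or DMSO replicate 3 (0.0038), and the cause was not tested. VWF, an endothelial marker, lost its call without enzalutamide replicate 2 (adjusted p = 0.0561) or DMSO replicate 2 (0.0528). Without enzalutamide replicate 1, chosen as an alternative for list counts after seeing the data, GRHL2 targets that fell numbered 5 against 1, and mesenchymal genes that rose 1 against 2, where 71.2% of all genes were called against 59.2%.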
